A study of Mus musculus with 4 samples.

Results

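Rhox5, Ddx4, Dazl, Mael, Stk31, Sycp1, Sycp3, Taf7l, Tex101 and Dppa3 are mouse genes used mainly by germ cells or gonads and known to be held silent in most body cells by DNA methylation at their promoters. Their transcript levels were read from every non-control array probe annotated with 1 of these 10 gene names. That gave 12 of the 41174 probes on the array, with 2 probes each for Dazl and Taf7l and 1 probe for each of the other 8 genes. DNA methylation itself was not measured, so silencing by methylation is known from other work on these genes and is not a measurement made here.

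The study compared 3 lines of neural progenitor cells (NPC), which are self-renewing cultures that can form neurons and glia, with 1 RNA pool called Mixture, in order to find transcription factors with higher expression in NPC. The line NS21 came from embryonic stem (ES) cell line 21 and has the strain label 129/Ola. NS195R came from ES line 195R with the strain label 129/Sv, and NSEB5-2C came from ES line EB5 with the strain label 129/Ola. Mixture was made of RNA of Swiss Webster mice, the same mass from each source: day 11 embryo, lung, liver, spleen, thymus, kidney and heart, with neither testis nor ovary named among its tissues. Its source label instead gives an NPC line under doxycycline, against its title and its cell type label, and these 2 labels were followed here. Each line and the pool had 1 array, hybridised with Cy3-labelled RNA from 0.25 ug of total RNA, and all 4 arrays lay on 1 slide with 1 scan date. Tests between NPC lines and Mixture therefore measured the spread between the 3 lines and assumed the same spread for the single Mixture array. Strain, line and stem cell source cannot be told apart in this design.

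Nestin (Nes) and vimentin (Vim), intermediate filament genes of neural progenitors, were well above background on all arrays. Of 8 neural progenitor markers, 6 were well above background in NS21, 8 in NS195R, 7 in NSEB5-2C and 7 in Mixture, which holds embryo RNA. Sox2, a transcription factor of neural progenitors, had a processed signal of 6.9 in NS21, which was not well above background, against 1620 in NS195R, 423 in NSEB5-2C and 21.7 in Mixture. The lipid-binding gene Fabp7, a radial glia marker, was not well above background in NS21 or NSEB5-2C. In NS21, Sox2 was at least 213-fold and Fabp7 at least 4851-fold lower than in NS195R. In NSEB5-2C, Fabp7 was at least 5338-fold lower than in NS195R. NS21 thus goes against its neural label in these 2 markers, and NSEB5-2C does so in Fabp7. Since Mixture met 7 of the 8 markers, their count does not set the lines apart from the pool.

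Germline genes of this kind are switched on in germ cells after DNA methylation has been erased genome-wide in primordial germ cells, and many are methylated again in the embryo around implantation by DNMT3B. The polycomb complex PRC1.6, which carries E2F6, MGA, MAX, L3MBTL2 and PCGF6, and the histone methyltransferase SETDB1 also keep many of them silent in mouse embryonic stem cells. Loss of DNMT1 or treatment with a demethylating drug is known to switch on several of them in cultured mouse cells, which is why they serve as reporters of methylation in somatic cells.

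RefSeq promoter windows (mouse build GRCm38.p6, 250 bases before to 50 bases from the transcription start) were matched by symbol for 9 of the 10 genes, all but Dppa3, with 2 start sites for Stk31. The windows of 4 genes are printed because they show the contrast within the set: Rhox5, the gene whose signal differed most between lines, Ddx4, Sycp1 and Dazl. They lie at chrX:37754358-37754657 (plus strand), chr13:112652261-112652560 (minus strand), chr3:102936051-102936350 (minus strand) and chr17:50293571-50293870 (minus strand), and are read 5′ to 3′ on the gene's strand. Capitals mark GCGGGA, the E2F6 motif, on either strand, and CACGTG, the E-box bound by MAX and MGA, which is the same on both strands.
Rhox5: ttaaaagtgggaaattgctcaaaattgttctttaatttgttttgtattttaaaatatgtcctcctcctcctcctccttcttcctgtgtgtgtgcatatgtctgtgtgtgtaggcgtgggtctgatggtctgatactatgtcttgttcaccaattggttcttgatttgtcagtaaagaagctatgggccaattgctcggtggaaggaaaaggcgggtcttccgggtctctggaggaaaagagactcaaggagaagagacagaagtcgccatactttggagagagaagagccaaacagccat
Ddx4: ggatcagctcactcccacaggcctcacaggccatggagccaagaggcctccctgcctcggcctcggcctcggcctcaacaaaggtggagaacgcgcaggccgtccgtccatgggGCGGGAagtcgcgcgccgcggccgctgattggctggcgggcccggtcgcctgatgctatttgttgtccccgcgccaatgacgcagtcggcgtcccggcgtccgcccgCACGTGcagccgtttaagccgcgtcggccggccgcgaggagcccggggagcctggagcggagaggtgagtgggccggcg
Sycp1: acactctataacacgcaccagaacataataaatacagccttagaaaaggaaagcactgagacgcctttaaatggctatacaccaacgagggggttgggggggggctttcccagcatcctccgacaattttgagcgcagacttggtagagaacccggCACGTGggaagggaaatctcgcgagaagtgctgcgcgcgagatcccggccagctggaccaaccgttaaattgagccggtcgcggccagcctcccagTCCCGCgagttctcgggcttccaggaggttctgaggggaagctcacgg
Dazl: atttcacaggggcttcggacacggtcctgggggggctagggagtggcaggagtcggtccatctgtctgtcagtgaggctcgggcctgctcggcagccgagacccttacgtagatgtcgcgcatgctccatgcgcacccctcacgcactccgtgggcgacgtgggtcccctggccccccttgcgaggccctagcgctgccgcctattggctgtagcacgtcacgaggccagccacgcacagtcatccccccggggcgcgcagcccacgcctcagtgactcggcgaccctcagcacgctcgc
The Rhox5 window held 5 CpG sites and 43.7% G and C, with neither motif. The Ddx4 window held 38 CpG sites and 72% G and C, the Dazl window 28 CpG sites and 68.7%, and the Sycp1 window 21 CpG sites and 56.7%. Over all 32851 RefSeq windows the median was 7 CpG sites, with quartiles of 3 and 20. The observed over expected CpG ratio was 0.36 for Rhox5, close to the median of 0.38 over all windows, and between 0.67 for Sycp3 and 1.03 for Taf7l in the other 9 windows. GCGGGA was found in the windows of 4 genes, Ddx4, Mael, Sycp1 and Sycp3, against 20% of all windows. CACGTG was found in the windows of 6 genes, Ddx4, Mael, Stk31, Sycp1, Sycp3 and Taf7l, against 7.15% of all windows. Both letter strings stood together for Ddx4, Mael, Sycp1 and Sycp3, against 1.99% of all windows. Each string itself holds a CpG, and its share among windows equally rich in CpG sites was not computed. The strings can share a base at their ends, but they overlapped in none of these windows. Dazl, Rhox5 and Tex101 had neither string in these 300 bases.

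**Figure D1:**
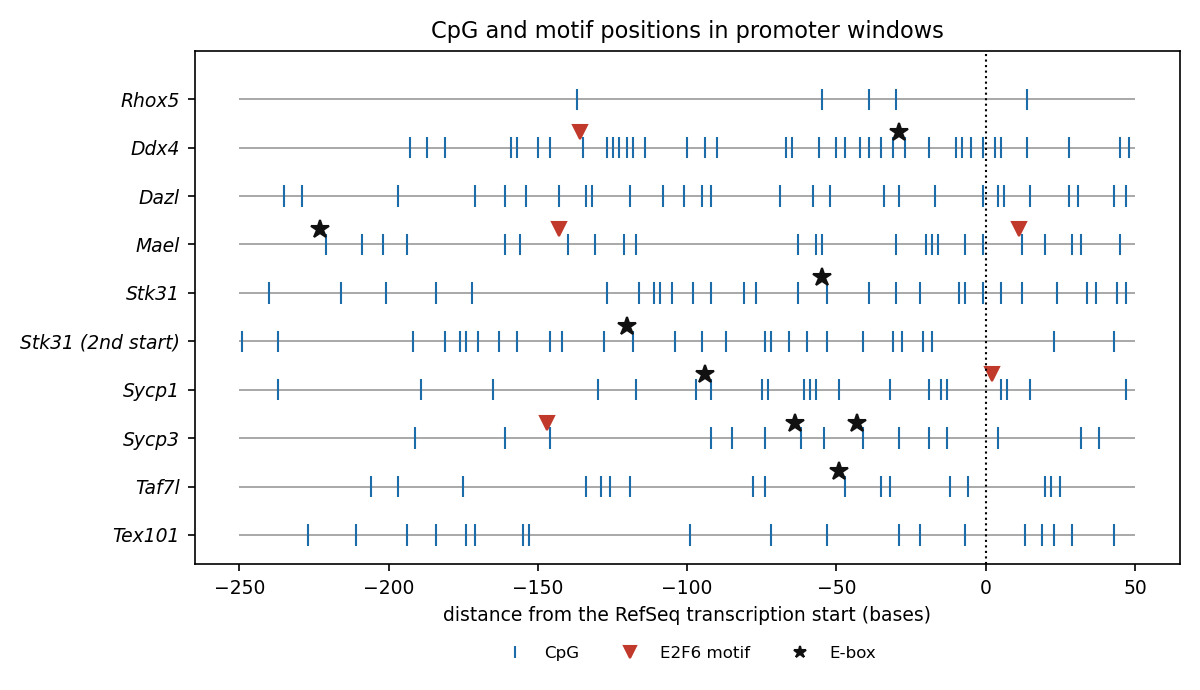
Positions of CpG sites (blue ticks), the E2F6 motif GCGGGA on either strand (red triangles) and the E-box CACGTG (black stars) in 10 promoter windows of 9 germline genes; the x axis gives the distance from the RefSeq transcription start in bases. The Rhox5 row carries 5 CpG ticks and no motif, while the Ddx4 row carries 38 ticks and both motifs.

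Signals were low for most of these genes on most arrays. Of the 48 spots (12 probes on 4 arrays), 9 were well above background by the scanner's own flag. The other 39 had processed signals between 1.36 and 5.56 scanner units, and on 30 spots the scanner software had put a surrogate value, derived from the noise, in place of the measured signal. The lowest processed signal flagged as well above background was 7.19 on the NS21 array, 6.92 on NS195R, 6.36 on NSEB5-2C and 8.1 on Mixture. By gene, 3 of 10 were well above background in NS21 (Rhox5, Ddx4 and Tex101), 3 in NS195R (Rhox5, Dppa3 and Tex101), 2 in NSEB5-2C (Rhox5 and Sycp1) and 1 in Mixture (Rhox5). Over all 27661 genes with values the share was 55.6% in NS21, 57.7% in NS195R, 54.1% in NSEB5-2C and 62% in Mixture. Dazl, Mael, Stk31, Sycp3 and Taf7l were well above background on no array, as were 28.3% of all genes. A signal that is not well above background bounds the level from above and does not show that a transcript is absent.

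**Figure D2:**
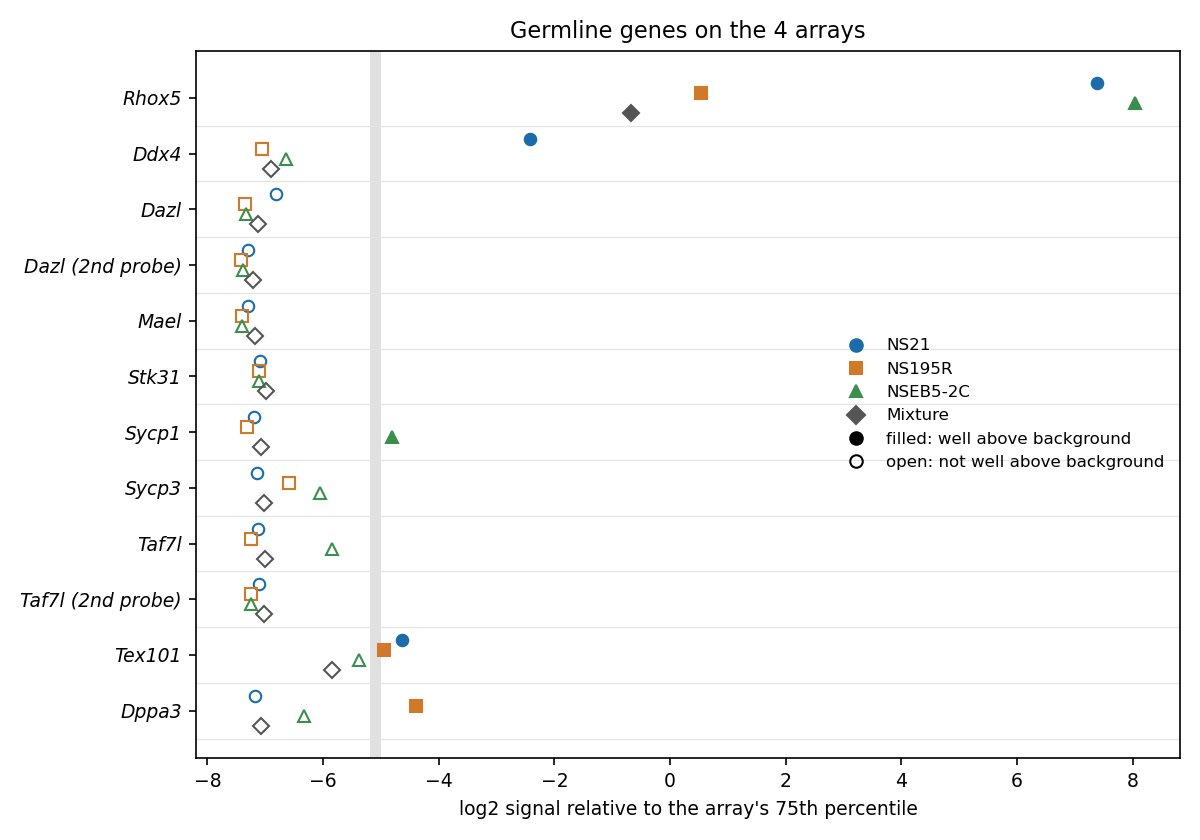
Scaled log2 signal (log2 of the processed signal minus the array's 75th percentile, x axis) of the 12 probes of 10 germline genes (rows) on the arrays of NS21, NS195R, NSEB5-2C and Mixture. Filled symbols are well above background, open symbols are not, and the grey band spans the lowest signals well above background on the 4 arrays. Only Rhox5 lies far to the right of the band, at 7.39 in NS21 and 8.04 in NSEB5-2C against 0.54 in NS195R and -0.67 in Mixture.

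No germline gene passed the test between the NPC lines and Mixture. Of the 5 genes tested, those well above background on at least 1 array, limma with Benjamini-Hochberg adjustment over all 19823 tested genes called 0, and 0 had an unadjusted p under 0.05 (1, Tex101, with quantile or median scaling). The same test called 9.85% of all tested genes, 0.938% (186 genes) as higher in NPC lines and 8.91% (1767) as lower, against 586 higher and 1628 lower with quantile scaling. The log2 differences, NPC lines minus Mixture, lay between 0.65 for Sycp1 and 5.99 for Rhox5, and the smallest adjusted p was 0.314, for Tex101. These 5 passed a filter that asks for signal on only 1 array, so their median is not given.

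Rhox5 (also known as Pem), a homeobox transcription factor of the X chromosome used by Sertoli cells, epididymis and placenta, was very bright in 2 NPC lines and 115-fold or more dimmer in the third. Its processed signal was 39986 ± 3999 in NS21, 367 ± 36.8 in NS195R, 61142 ± 6114 in NSEB5-2C and 163 ± 16.4 in Mixture (± is the scanner's error of 1 spot). The signal was well above background and unsaturated on all 4 arrays. NS21 and NSEB5-2C stood apart from NS195R and Mixture, with no value between 367 and 39986.

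Against Mixture, Rhox5 was 266-fold higher in NS21, 2.31-fold higher in NS195R and 419-fold higher in NSEB5-2C after scaling each array to its 75th percentile. NS195R was 144-fold below the geometric mean of NS21 and NSEB5-2C, a log2 difference of -7.17 (limma adjusted p = 0.273 over all tested genes). NSEB5-2C was 1.57-fold above NS21. The NPC lines together did not pass the test against Mixture (log2 difference 5.99, SE 3.73, limma adjusted p = 0.363). With NS195R left out, the log2 difference between the remaining lines and Mixture was 8.38 (limma adjusted p = 0.0544), against 4.96 without NS21 and 4.63 without NSEB5-2C. The lines with the high signal share the strain label 129/Ola and NS195R has the label 129/Sv. The Rhox5 promoter window printed above is the poorest in CpG sites of the 10 windows.

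By size, 4 of the 5 tested genes differed at least 2-fold from both other NPC lines in 1 line. Without the filter on dim probes, 5 of the 10 genes did, with Taf7l added, which was well above background on no array. Ddx4 was higher in NS21, where 8.88% of all tested genes were called higher by this rule. Dppa3 was higher in NS195R, where 12.6% of tested genes were, and Sycp1 was higher in NSEB5-2C, where 6.93% were. Ddx4, Dppa3 and Sycp1 each passed the filter only through the line where they are called higher. The filter thus set their line and direction in advance, and these calls are no separate evidence. Rhox5 was lower in NS195R, as were 7.37% of tested genes. None of the 5 tested genes was lower in NS21 or in NSEB5-2C, where 5.87% and 9.34% of all tested genes were. With median scaling 2051 genes were higher and 2140 lower in NS195R, against 2491 and 1461 here, and 2113 were higher and 1213 lower in NSEB5-2C, against 1374 and 1851 here. The limma test of 1 line against the other lines called 0 genes in any line after adjustment, while an unadjusted p under 0.05 was reached by 5.71% of tested genes in the test of NS21, 10.5% in that of NS195R and 5.83% in that of NSEB5-2C. When signals below the background limit were raised to it, Ddx4 and Rhox5 still met the rule, and Dppa3 and Sycp1 did not.

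Ddx4 (also known as Vasa), an RNA helicase of germ granules and a standard marker of germ cells, was measurable in NS21 alone. Its processed signal was 44.2 ± 4.78 in NS21, against 1.88 in NS195R, 2.31 in NSEB5-2C and 2.16 in Mixture, all 3 not well above background. The NS21 level exceeded the other lines at least 6.76-fold and Mixture at least 5.92-fold, where "at least" sets the brighter signal against the lowest signal that counts as well above background on the dimmer array. Over the lines, the log2 difference of NS21 from the other 2 was 4.43 (limma adjusted p = 0.709), and that of the NPC lines from Mixture was 1.52 (SE 2.32, limma adjusted p = 0.704). Without NS21 that difference was 0.05, and with normexp background correction 0.30. The Ddx4 window is the richest in CpG sites of the 10 and carries both strings.

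The other RNA regulators of germ cells gave no measurable signal. Dazl, an RNA-binding protein needed for germ cell development, had signals not well above background on all 4 arrays with both of its probes. Mael, a piRNA pathway factor that helps silence transposons, and Stk31, a tudor-domain kinase-like protein of spermatogenic cells, likewise stayed at background level on the 4 arrays. For these 3 genes, Sycp3 and Taf7l together, the 28 spots had signals between 1.36 and 4.02, and 24 of them were surrogate values.

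Sycp1 and Sycp3 encode structural proteins of the synaptonemal complex, the zipper between paired chromosomes in meiosis. Sycp1 had a signal of 8.32 ± 1.73 in NSEB5-2C, against 1.63 in NS21, 1.59 in NS195R and 1.91 in Mixture. NSEB5-2C alone was well above background, by a narrow margin: at least 1.19-fold above NS21, 1.31-fold above NS195R and 1.15-fold above Mixture. The log2 difference of NSEB5-2C from the other lines was 2.45 (limma adjusted p = 0.77), and that of the NPC lines from Mixture was 0.65 (SE 1.31, limma adjusted p = 0.764). Sycp3, a lateral element protein, had 1.69 in NS21, 2.62 in NS195R, 3.49 in NSEB5-2C and 1.98 in Mixture, none well above background. Neither gene was measurable in Mixture.

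Taf7l, an X-linked relative of the general transcription factor subunit TAF7 used in male germ cells, gave no signal well above background with either probe on the 4 arrays. The brightest of its 8 spots was 4.02 in NSEB5-2C with 1 probe, while the other probe read 1.53 on the same array. Tex101, a surface glycoprotein of germ cells, lay at the edge of detection. Its signal was 9.53 ± 1.94 in NS21, 8.23 ± 1.82 in NS195R, 5.56 ± 1.63 in NSEB5-2C and 4.5 ± 2.01 in Mixture. NS21 and NS195R were well above background and differed 1.22-fold from each other, while NSEB5-2C and Mixture were not. NS21 was at least 1.28-fold and NS195R at least 1.04-fold above Mixture, while the log2 difference of the NPC lines from Mixture was 0.86 (SE 0.47, limma adjusted p = 0.314). With quantile scaling it was 1.67 (adjusted p = 0.0922) and with median scaling 1.61 (adjusted p = 0.121). The scanner errors of neighbouring arrays in this order overlapped.

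Dppa3 (also known as Stella), a maternal factor that protects the maternal genome of the early embryo from demethylation and marks primordial germ cells, was measurable in NS195R alone. Its signal was 11.98 ± 2.05 in NS195R, against 1.64 in NS21, 2.88 in NSEB5-2C and 1.93 in Mixture. NS195R exceeded NS21 at least 1.58-fold, NSEB5-2C at least 1.73-fold and Mixture at least 1.52-fold. The log2 difference of NS195R from the other lines was 2.36 (limma adjusted p = 0.458), and that of the NPC lines from Mixture was 1.10 (SE 1.32, limma adjusted p = 0.628). Without NS195R that difference was 0.31, and with normexp background correction 0.19. RefSeq also lists a Dppa3 pseudogene in the mouse, and whether the probe reads it was not tested.

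Rhox5 lies in a large cluster of reproductive homeobox genes on the X chromosome, and 8 Rhox genes had a probe. Rhox6 and Rhox9, placenta and gonad genes that follow Rhox5 in the cluster, and Rhox2a were well above background in NS21 alone. Rhox6 had a signal of 70 in NS21, against 1.98 in NS195R, 1.89 in NSEB5-2C and 2.3 in Mixture, at least 10.7-fold above the other lines and at least 9.37-fold above Mixture. Rhox9 had 97.2 in NS21, against 1.72 in NS195R, 1.28 in NSEB5-2C and 4.53 in Mixture, at least 14.9-fold above the other lines. Rhox2a had 27 in NS21, against 4.08 in NS195R, 2.08 in NSEB5-2C and 7.87 in Mixture, at least 4.13-fold above the other lines. NSEB5-2C, the line with the highest Rhox5 signal, thus had no measurable signal for these 3 cluster genes.

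Rhox4e was well above background everywhere, with 109 in NS21, 79.4 in NS195R, 88.9 in NSEB5-2C and 111 in Mixture (log2 difference of NPC lines from Mixture -0.17, limma adjusted p = 0.807). Rhox3a, Rhox11 and Rhox13 were not well above background on any array. Rhox2, Rhox3 and Rhox4 exist as near-identical copies, so these probes may read several genes at once. Limma called 0 of the 5 Rhox genes tested between NPC lines and Mixture, with 0 at an unadjusted p under 0.05. Outside the cluster, Lamp2, a lysosomal membrane protein, had 5169 in NS21, 4261 in NS195R, 4123 in NSEB5-2C and 4050 in Mixture (log2 difference 0.25, limma adjusted p = 0.696). Zbtb33, which encodes the methyl-CpG binding protein Kaiso, had 602 in NS21, 408 in NS195R, 313 in NSEB5-2C and 149 in Mixture (limma adjusted p = 0.16). Other neighbours differed more. Atp1b4, which the test called lower in NPC lines, had 1.51 in NS21, 1.47 in NS195R, 1.33 in NSEB5-2C and 242 in Mixture. Tmem255a had 7.57 in NS21, 40.7 in NS195R, 1.5 in NSEB5-2C and 78.8 in Mixture.

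**Figure D3:**
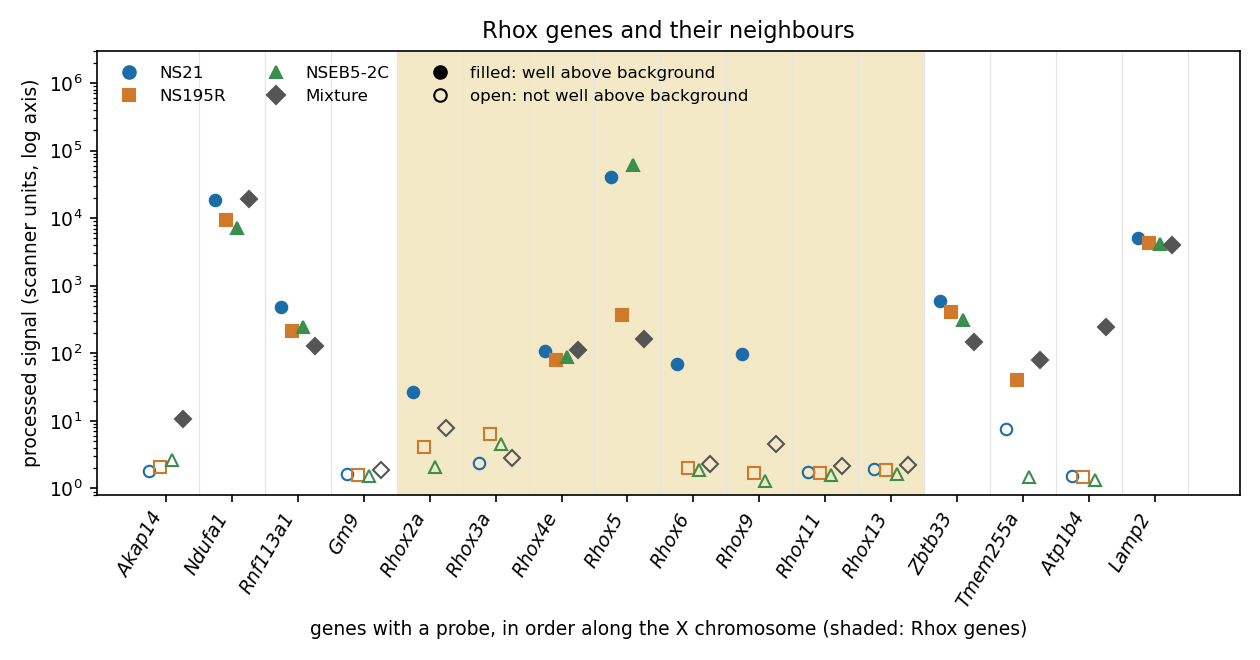
Processed signal in scanner units (log axis) of 8 Rhox genes (shaded) and 8 flanking genes, in their order along the X chromosome, on the arrays of NS21, NS195R, NSEB5-2C and Mixture; filled symbols are well above background. Rhox5 reaches 39986 in NS21 and 61142 in NSEB5-2C, while Rhox2a, Rhox6 and Rhox9 are filled in NS21 alone. Brightness differs between probes for reasons other than transcript level, so symbols compare arrays within a gene and not genes with each other.

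Some markers of other cell types were, like Ddx4, Rhox2a, Rhox6 and Rhox9, highest in NS21. Of 15 markers of pluripotent or primordial germ cells on the array, 9 were well above background in NS21, 7 in NS195R, 6 in NSEB5-2C and 8 in Mixture, and their summed signal was 2615 in NS21, 434 in NS195R, 198 in NSEB5-2C and 582 in Mixture. The pluripotency factor Pou5f1 had 86.5 in NS21, against 5.17 in NS195R, 1.47 in NSEB5-2C and 1.8 in Mixture, at least 13.2-fold above the other lines. Tfap2c, a factor of primordial germ cells and trophoblast, had 1786 in NS21, 35.3 in NS195R, 11 in NSEB5-2C and 36.2 in Mixture. Esrrb had 472 in NS21, and Tfap2c and Esrrb together carried most of the NS21 sum. Not all markers were highest in NS21. Prdm1 had 1.85 in NS21, not well above background, against 64.9 in NS195R and 60.8 in Mixture. Kit had 29.6 in NS21, 86.1 in NS195R and 189 in Mixture, and Zfp42 was well above background in NSEB5-2C alone. Nanog, Nanos2, Nanos3 and Tdgf1 were not well above background on any array.

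Cdx2, a factor of trophoblast and gut, had 7146 in NS21, against 5 in NS195R, 5.49 in NSEB5-2C and 65 in Mixture. NS21 exceeded Mixture 119-fold and the other lines at least 1092-fold, which were not well above background. Gata6 was likewise well above background in NS21 alone among the lines, with 25.4, against 3.12 in NS195R and 5.14 in NSEB5-2C. Mixture had a higher Gata6 signal, 625. The other markers of this list did not follow Cdx2. Elf5 had 6.35 in NS21, not well above background, and 129 in Mixture, while Eomes had 17.9 in NS21 and 48 in NSEB5-2C. Of the 9 extraembryonic endoderm and trophoblast markers, 3 were well above background in NS21, 1 in NS195R, 3 in NSEB5-2C and 8 in Mixture. They summed to 7211 in NS21, 32.5 in NS195R, 211 in NSEB5-2C and 35691 in Mixture, with Hand1 dim on all 4. Single probes carried these sums, Cdx2 in NS21 and Afp, a fetal plasma protein, in Mixture with 34377. Of 8 Sertoli cell markers, 4 were well above background in NS21, 3 in NS195R, 4 in NSEB5-2C and 5 in Mixture, with sums of 3767 in NS21, 825 in NS195R, 1046 in NSEB5-2C and 8846 in Mixture. Clu, a secreted chaperone used by many tissues, gave 3460 of this sum in NS21, 224 in NS195R, 999 in NSEB5-2C and 8569 in Mixture. Cst9 was well above background in NS21 alone, with 56.6, against 1.91 in NS195R, 1.82 in NSEB5-2C and 2.28 in Mixture. Dhh was highest in NS195R, with 570 against 213 in NS21, and Inha, Gata4, Gata1 and Clu were highest in Mixture. The Sertoli genes Amh and Fshr, and the oocyte genes Zp2, Zp3, Bmp15, Nobox and Figla, were dim on all 4 arrays. Of 7 oocyte markers 1 was well above background in each NPC line and 2 in Mixture, with sums of 35.7 in NS21, 185 in NS195R, 27.2 in NSEB5-2C and 50.5 in Mixture. The part of such cells in the Ddx4 and Rhox values was not tested, and fewer cells of a type cannot be told apart from less RNA per cell in these bulk samples.

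Of 25 other meiosis genes on the array, 8 were well above background in NS21, 9 in NS195R, 6 in NSEB5-2C and 11 in Mixture. Limma called 0 of the 16 tested as higher and 1 as lower in NPC lines than in Mixture. Over all tested genes it called 0.938% as higher and 8.91% as lower, so 1 lower gene of 16 does not set this list apart. The lower gene was Meiob, a single-strand DNA binding protein of meiotic recombination, with 2.38 in NS21, 7.01 in NS195R, 2.55 in NSEB5-2C and 158 in Mixture, lower at least 21.5-fold on average over the lines (limma adjusted p = 0.0489). Without 1 of the lines its adjusted p was 0.0559 to 0.185. Stag3, a subunit of meiotic cohesin, had 36.4 in NS21, 129 in NS195R, 457 in NSEB5-2C and 2.02 in Mixture, where it was not well above background. All 3 lines lay above Mixture, at least 17.1-fold on average, yet the lines differed by up to 12.9-fold and the test did not call it (log2 6.10, SE 1.68, limma adjusted p = 0.126). Stra8, the retinoic acid target that starts meiosis, was well above background in Mixture alone, with 1.51 in NS21, 1.5 in NS195R, 2.69 in NSEB5-2C and 28.7 in Mixture.

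Among 18 genes of the piRNA pathway and germ granules, 7 were well above background in each NPC line and 8 in Mixture. Of the 13 tested, 1 rose and 1 fell in NPC lines against Mixture, where 0.938% of all tested genes were called higher and 8.91% lower. Tdrkh, a tudor protein that anchors piRNA processing at mitochondria, had 1111 in NS21, 853 in NS195R, 989 in NSEB5-2C and 111 in Mixture, 9.49-fold higher in NPC lines (log2 3.25, SE 0.40, limma adjusted p = 0.0332), and its other probe was well above background in the 3 lines and not in Mixture. Piwil2, a Piwi protein that binds piRNAs, had 1.51 in NS21, 1.45 in NS195R, 1.35 in NSEB5-2C and 64.1 in Mixture, at least 8.77-fold lower on average in NPC lines (limma adjusted p = 0.0107). Piwil2 and Meiob were well above background in Mixture alone, so the spread behind their tests is that of dim values in the lines. Without 1 of the lines neither gene passed the test, with adjusted p of 0.082 to 0.143 for Tdrkh and 0.0565 to 0.0939 for Piwil2, and limma then called 0 genes of the whole array.

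Tex19.1, Tdrd5 and Mov10l1, among the genes of this list with the widest range over arrays each had their highest signal among the lines in a different one. Tex19.1, a placental mammal gene of germ and pluripotent cells that is itself known to be silenced by promoter methylation in body cells, had 18.7 in NS21, 1.61 in NS195R, 733 in NSEB5-2C and 3.43 in Mixture. NSEB5-2C was 40.2-fold above NS21, at least 115-fold above NS195R and at least 101-fold above Mixture, while the 3 lines together did not pass the test (limma adjusted p = 0.65). Whether the probe also reads a related gene was not tested. Tex19.1 and Rhox5 thus both had their highest signal in NSEB5-2C and their lowest among the lines in NS195R. Tdrd5, a tudor protein of germ granules, had 97.1 in NS21, 1.47 in NS195R, 4.29 in NSEB5-2C and 50.4 in Mixture, at least 14.8-fold higher in NS21 than in the other lines. Mov10l1, a helicase that starts piRNA processing, had 1.58 in NS21, 22.7 in NS195R, 1.39 in NSEB5-2C and 81.2 in Mixture, with NS195R and Mixture well above background. The other probes of Tdrd5 and Mov10l1 were not well above background on any array.

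Genes of late spermatids were rarely measurable. Of 12, 1 was well above background in NS21, 3 in NS195R, 2 in NSEB5-2C and 2 in Mixture, and limma called 0 of the 4 tested. Prm1, a protamine that packs sperm DNA, was well above background on all 4 arrays (log2 0.40, SE 0.34, limma adjusted p = 0.494), and Akap4, a sperm tail scaffold, in Mixture alone (log2 -2.50, limma adjusted p = 0.127).

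**Figure D4:**
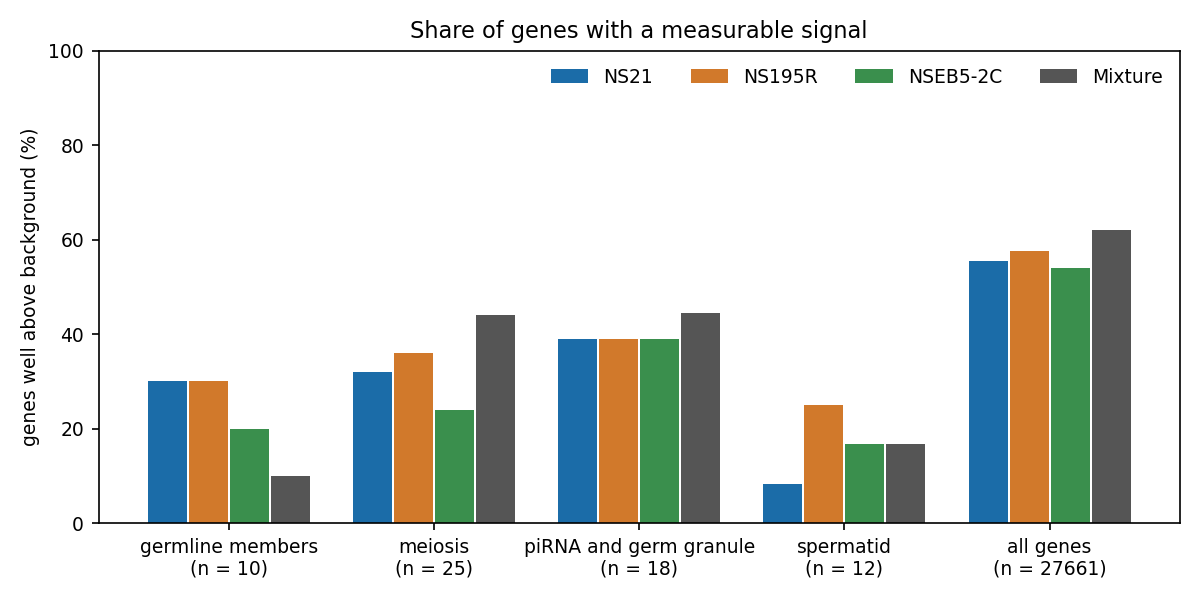
Share of genes with a signal well above background (y axis, percent, starting at 0) on the arrays of NS21, NS195R, NSEB5-2C and Mixture, for the 10 germline genes, 25 meiosis genes, 18 piRNA and germ granule genes, 12 spermatid genes and all 27661 genes. The 4 germline lists lie between 8.33% and 44.4%, below the 54.1% to 62% of all genes on every array.

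Enzymes of DNA methylation and demethylation and known repressors of germline genes were measurable almost everywhere: of 21, all were well above background in NS21, NSEB5-2C and Mixture, and 20 in NS195R. The exception was Dnmt3l, the cofactor of de novo methylation in germ cells, with 22.8 in NS21, 3.24 in NS195R, 8.1 in NSEB5-2C and 24.6 in Mixture. Of the 21, 14 were above Mixture in all 3 NPC lines and 0 were below it in all, against 43% of all tested genes above Mixture in all lines. Their median log2 difference was 1.07, beside 0.44 over all tested genes and 0.71 over the 12729 genes well above background on every array, and 15 of the 21 lay above 0.71. With median scaling these medians were 1.82 for the 21 and 1.46 for the genes on every array, again with 15 above. Limma called 1 of them as higher and 0 as lower, beside 0.938% and 8.91% of all tested genes. At an unadjusted p under 0.05, 7 were higher, where 15.6% of tested genes were. Of the 21, 20 were well above background on every array. In a separate fit of the 12729 such genes, 3083 were higher at that limit. Limma called 3 of the 21 as higher with normexp and 0 with median scaling, beside 973 of 19824 and 176 of 19823 tested genes. At an unadjusted p under 0.05, 10 were higher with normexp and 11 with median scaling, beside 3572 and 5109 of all tested genes.

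Setdb1, a histone H3 lysine 9 methyltransferase, was the gene that passed, with 333 in NS21, 388 in NS195R, 327 in NSEB5-2C and 68.2 in Mixture, 5.49-fold higher in NPC lines (log2 2.46, SE 0.34, limma adjusted p = 0.0429). It no longer passed with median scaling (adjusted p = 0.0505) or without 1 of the lines (adjusted p 0.113 to 0.159), and its other probe gave no signal well above background. Dnmt3b, the de novo methyltransferase of the early embryo, had 372 in NS21, 47.2 in NS195R, 15.2 in NSEB5-2C and 36.8 in Mixture. NS21 was 8.34-fold above NS195R, 23.7-fold above NSEB5-2C and 11-fold above Mixture, and the 3 lines together did not pass the test against Mixture (log2 0.91, SE 2.11, limma adjusted p = 0.794). NS21, the line with the highest Dnmt3b signal, was also the line with measurable Ddx4, Rhox2a, Rhox6 and Rhox9, and NSEB5-2C, the line with the lowest, had the highest Rhox5. Rhox5 did not follow the order of Dnmt3b, with 39986 in NS21 and 367 in NS195R, whose Dnmt3b lay between the other lines. Any link between these levels was not tested.

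Hells, a chromatin remodeller needed for DNA methylation (log2 2.76, SE 0.89, limma adjusted p = 0.154), and Pcgf6, a PRC1.6 subunit (log2 2.37, SE 0.64, limma adjusted p = 0.124), were above Mixture in all lines without passing the test. Dnmt1, which copies methylation after replication, had 1411 in NS21, 1667 in NS195R, 2546 in NSEB5-2C and 644 in Mixture (limma adjusted p = 0.166). Uhrf1, which brings DNMT1 to replicated DNA, had 2169 in NS21, 1950 in NS195R, 2097 in NSEB5-2C and 1059 in Mixture (limma adjusted p = 0.161). Dnmt1 and Uhrf1 were named after their values were seen. None of these array levels measures methylation at a promoter.

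**Figure D5:**
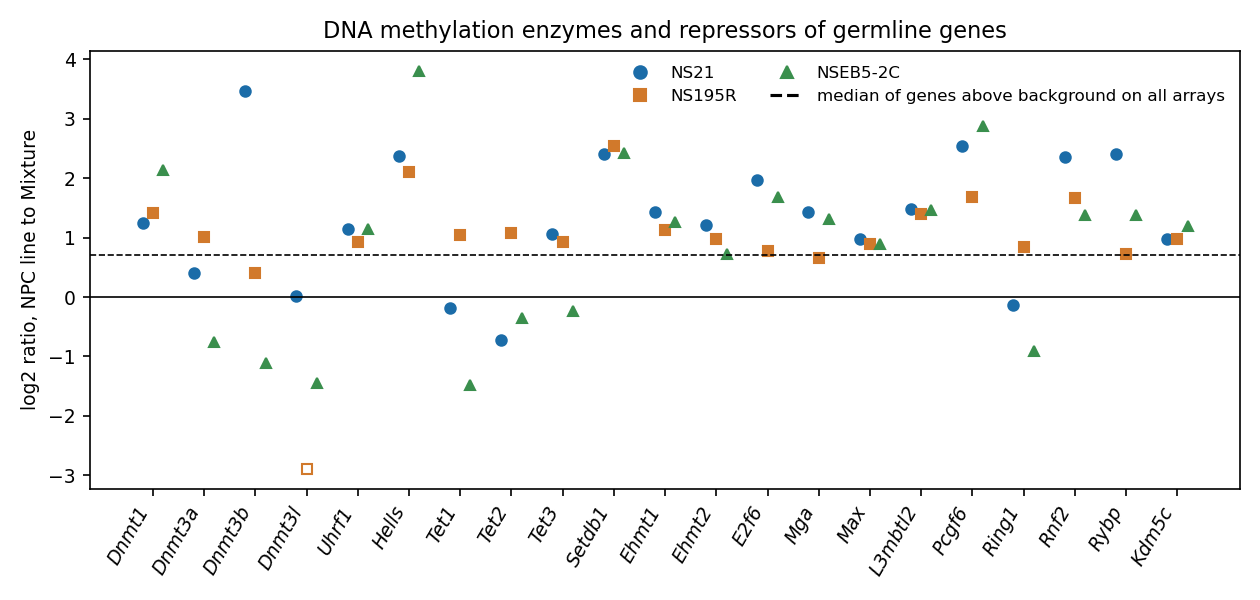
Log2 ratio of each NPC line to Mixture (y axis) for 21 DNA methylation enzymes and repressors of germline genes; the dashed line is the median of genes well above background on all arrays, 0.71, and the open symbol is a signal not well above background. The 3 lines lie close together for Setdb1 and far apart for Dnmt3b.

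Genes whose signals over the 4 arrays followed a member most closely were sought among 15967 symbol-named genes, by the Euclidean distance of centred log2 profiles with signals below the background limit raised to it. The nearest to Rhox5 were Hmga2, an embryonic chromatin protein, at a distance of 1.42, Rin1 at 2.06 and Mmp10, a matrix protease, at 2.17. No gene came closer to Rhox5 than Hmga2, whereas Ddx4 had Kbtbd12, Ccdc54 and Ppef2 within 0.05, genes that share its signal in NS21 alone. Sycp1 had Spata20, Grik1 and Prss42 within 0.02, and Dppa3 had Speer4cos, Tex14 and Olfr1133 within 0.01. The nearest to Tex101 were Atp6v1b2 at 0.02, Sparc at 0.06 and Ufsp2 at 0.07. Profiles that sit at the background limit on 3 of 4 arrays have few values to differ in.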

How the data were processed

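The values were total RNA signals from 3 NPC lines and Mixture on 1-colour Agilent arrays. The deposited intensity values are processed signals, which the scanner software had corrected for background, with surrogate values for dim spots (per the file headers, version 9.5.3.1 of Agilent Feature Extraction). Mean and background intensity columns deposited by the authors served for an alternative. The deposited value table equals the processed signal, with a largest difference of 0.0. No genome build was needed for the probes, which were matched by name.

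Log2 of the processed signal minus each array's 75th percentile was used, without a pseudocount. Spots of a probe were averaged, and a gene took its probe with the highest mean. Of the probes, 22951 were named through RefSeq transcripts, 6659 by symbol, 3109 by synonym and 8455 by the name in the files. Genes with 1 or more arrays well above background, 19823 in all, were tested with limma 3.58.1 in R 4.3.3 (lmFit, eBayes), two-sided, with Benjamini-Hochberg adjustment at 0.05. The fit had 2 residual degrees of freedom, and the number of arrays limits the precision. Well-above-background spots numbered 24523 in NS21, 25690 in NS195R, 23983 in NSEB5-2C and 26840 in Mixture of 43379, and 0 were saturated. A ratio given as "at least" uses the lowest signal well above background on the dim array, or the dim probe's own value where that is higher.

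The members and the gene lists were chosen with earlier results of these data known. All 10 members and all Rhox genes were named. Other germline and repressor list genes were taken from those past the test and the 4 of their list with the widest range over arrays. Meig1, Prm2 and Tnp2 met this rule and are not described, while Dnmt1 and Uhrf1 were added outside it. Fits were tested on simulated data. Alternatives changed the background correction, scaling, dim-probe filter, probe choice, variance prior, fold and lines. Probes of other genes were left out except as stated.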

Additional observations from a re-analysis of the deposited data

How the results depend on the processing

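The count of germline genes called between NPC lines and Mixture was 0 under every alternative run: normexp background correction with offset 50, quantile and median scaling, no filter on dim probes, only genes well above background on all 4 arrays, all probes fitted separately, the mean of probes, an intensity trend, and each line left out in turn, with a lowest and highest count of 0. The count of germline genes at least 2-fold from both other lines, 4 in the report, was 1 (Rhox5) with normexp, 1 (Rhox5) when all 4 arrays had to be well above background, and 2 (Ddx4 and Rhox5) with dim signals raised to the background limit. With quantile or median scaling it stayed 4, and 1 member also counted as lower in NS21. It was 5 without the filter, 4 at 1.5-fold and 3 at 4-fold. Of 76 recomputed single-gene values, 75 kept their sign, but with normexp the line differences shrank to 0.81 for Ddx4 in NS21, 0.16 for Dppa3 in NS195R and 0.22 for Sycp1 in NSEB5-2C, against 4.43, 2.36 and 2.45 in the report. The exception in sign was the Sycp1 difference of NPC lines from Mixture, which was -0.17 without NSEB5-2C and ranged over the lines left out up to 1.09; NSEB5-2C is the 1 array where Sycp1 was well above background. The call of 186 higher and 1767 lower genes over the whole array was 973 and 1987 with normexp, 586 and 1628 with quantile scaling, 524 and 1969 without the filter, 472 and 1802 with the trend, 280 and 2340 over single probes, and 0 and 0 when genes had to be well above background on all 4 arrays or a line was left out. Median scaling moved the median over the genes measurable on every array to 1.46, against 0.71. No paired analysis was possible because the labels give no replicate numbers shared between the groups.

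Each line had 1 array, so differences between lines have no replicate check, and 39 of 48 spots of these genes were too dim to order. Surrogate values set many dim signals, so log2 differences of Ddx4, Sycp1 and Dppa3 mix a measured level with a noise-derived one. Tex101 had no surrogate value, but its log2 differences mix signals well above background with dim ones.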

Other observations

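A gap was computed for each of the 19823 tested genes as the lower log2 signal of NS21 and NSEB5-2C minus the higher of NS195R and Mixture, a measure chosen after the Rhox5 values were seen. Rhox5 had the largest gap, 6.85 on the log2 scale or 115-fold, and was the 1 gene with a gap of at least 6. The next were Dusp9, a MAP kinase phosphatase, with 5.83, Rin1, a Ras effector, with 5.46, Hmga2 with 5.24 and Mmp10 with 5.17, and 10 genes in all had a gap of at least 4. Dusp9, like Rhox5, lies on the X chromosome, and whether X-linked genes are frequent among those with a large gap was not tested.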
